A study of Mus musculus with 17 samples.

Results

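The genes of the urea cycle and of amino acid breakdown were followed in mouse hepatocytes, the cells that carry out most of this chemistry in the body. They are 50 genes of 23461 in the table, taken by symbol from a list of enzymes and carriers. The list spans the urea cycle with its nitrogen supply (8 genes), serine and histidine (6), tyrosine (5), tryptophan (7), glycine and proline (6), methionine and sulfur (7), aminotransferases (3), and lysine and the branched-chain amino acids (8). All 50 passed the filter on low counts that left 13721 genes for testing. RNA was sequenced from hepatocytes sorted by FACS from male mice 2 to 3 months old. There were 3 samples of Yap/Taz knockout mice given CCl4, 4 of untreated Yap/Taz knockout mice, 5 of wildtype mice given CCl4 and 5 of untreated wildtype mice. CCl4 is a solvent that injures hepatocytes, and it was given at 1 ug/g in 7 doses, 3 days apart, with cells taken 3 days after the last. Yap and Taz (gene Wwtr1) are transcriptional coactivators held in check by the Hippo kinases. The labels do not say how the genes were knocked out, whether untreated mice received the solvent's carrier, or which markers set the sort. They also do not say whether each sample is from its own animal, so p values measure the spread between these samples. That spread was estimated for each gene over all 4 groups in 1 fit, not within the CCl4 knockout samples alone. In bulk RNA of a sorted fraction, fewer hepatocytes and less RNA per hepatocyte cannot be told apart.

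Amino acids that are not used for protein lose their nitrogen, and their carbon skeletons are burned or turned into glucose. Aminotransferases and deaminases collect the nitrogen as glutamate, aspartate and ammonia. The urea cycle, which runs partly in mitochondria and partly in the cytosol, turns ammonia and the nitrogen of aspartate into urea. Many of these enzymes are made chiefly by hepatocytes and most strongly near the portal vein, and in liver they are known to respond to glucagon, glucocorticoids and feeding.

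Samples held 11266420 to 24775863 counts, with a median of 14786573. Yap1 had 0.536 to 1.97 CPM in CCl4 knockout and 1.21 to 8.04 CPM in untreated knockout samples, against 42.5 to 64.4 CPM in CCl4 wild type and 37.4 to 73.6 CPM in untreated wild type samples. Wwtr1 had 2.72 to 7.09 CPM in CCl4 knockout and 1.198 to 2.51 CPM in untreated knockout samples, against 15.2 to 23.4 CPM in CCl4 wild type and 9.86 to 18.9 CPM in untreated wild type samples. CPM are counts relative to the size of each library, with sizes scaled by TMM, a method that matches libraries on the bulk of their genes. Summed marker levels are instead CPM of total counts, without that scaling. Summed levels of 8 hepatocyte markers were 104361 to 172374 CPM in CCl4 knockout and 110493 to 130642 CPM in untreated knockout samples, against 128964 to 144194 CPM in CCl4 wild type and 74984 to 129359 CPM in untreated wild type samples. Other cell types were also present in the RNA. Summed levels of 12 macrophage markers were 169, 454 and 3937 CPM in CCl4 knockout and 24.3 to 63.5 CPM in untreated knockout samples, against 57.0 to 142 CPM in CCl4 wild type and 16.5 to 65.3 CPM in untreated wild type samples. The highest value belonged to CCl4 knockout replicate 3, which also had 34.3% of its counts on mitochondrially encoded genes. Untreated wild type replicate 5 had 30.7%, and every other sample had less than 30%. Counts of the 50 genes, of related genes and of cell markers in the injured knockout are also given without that replicate. Counts by pathway and by related list are given without it only for CCl4 against untreated knockout. Tests of single genes hold it unless stated.

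Levels were compared between genes per kilobase of exon. In untreated wild type cells the highest were 1679 ± 259.8 CPM per kilobase for Ass1, 1369 ± 167 for Gnmt, 911 ± 153 for Cps1, 804 ± 304 for Tat and 728 ± 67.4 for Hpd (mean ± SD, n = 5). Among these 5, neighbours overlapped within 1 SD except Gnmt and Cps1. The lowest 3 were Sdsl at 9.72 ± 1.40, Hibch at 9.04 ± 1.81 and Mccc1 at 4.96 ± 0.416 CPM per kilobase, the last over 10952 bases of annotated exon. In CCl4 knockout cells Ass1 was again first, at 1016 ± 314, followed by Gnmt at 591 ± 153 CPM per kilobase (n = 3). The 50 genes varied more between replicates in that group: their median coefficient of variation in CPM was 33.4% in CCl4 knockout and 17.2% in untreated knockout samples, against 19.1% in CCl4 wild type and 16.4% in untreated wild type samples. Together they held 2.96, 2.20 and 1.89% of the counts outside mitochondrially encoded genes in CCl4 knockout replicates 1, 2 and 3, against 2.80 to 3.62% in untreated knockout samples. In CCl4 wild type they held 3.11 to 4.29%, against 2.97 to 3.79% in untreated wild type samples. Only CCl4 knockout replicates 2 and 3 lay below every sample of the other 3 groups.

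**Figure D1:**
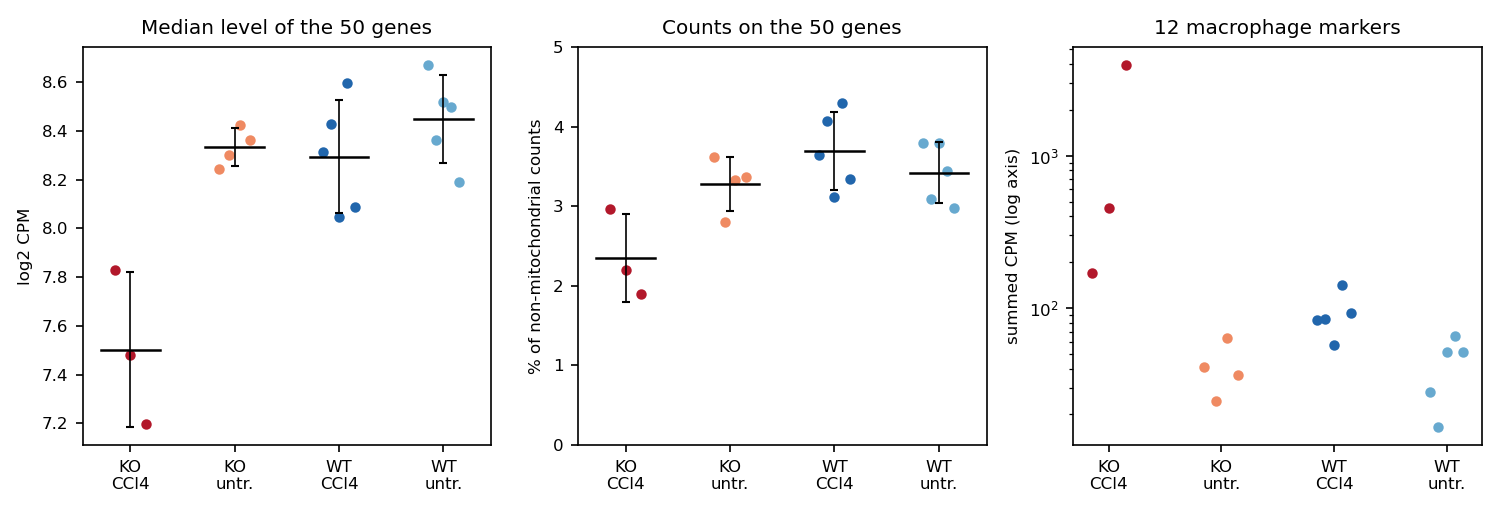
Each point is 1 sample: the left panel plots the median log2 CPM of the 50 genes, the middle panel their share of counts outside mitochondrially encoded genes, and the right panel the summed CPM of 12 macrophage markers on a log axis, for CCl4 knockout, untreated knockout, CCl4 wild type and untreated wild type samples, with mean and SD bars in the first 2 panels. The medians of the 3 CCl4 knockout samples were 7.83, 7.48 and 7.20 log2 CPM, below every other sample, and their macrophage sums were the 3 highest.

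In the fit of all 17 samples, repeated CCl4 in the knockout was followed by lower transcripts of enzymes from every pathway on the list. At an adjusted p under 0.05, 31 of the 50 genes fell in CCl4 against untreated knockout cells and none rose, where 6.96% of all tested genes fell and 12.1% rose. Their log2 changes ran from -1.73 for Gls2 to 0.52 for Nags, with a median of -0.80 against 0.01 over all tested genes, and 48 were below 0. Aminotransferases fell in 3 of 3, serine and histidine genes in 5 of 6, lysine and branched-chain genes in 6 of 8, tryptophan genes in 5 of 7, urea cycle genes in 5 of 8 and tyrosine genes in 3 of 5. Glycine and proline genes fell in 2 of 6, and methionine and sulfur genes in 2 of 7. For 32 genes every CCl4 knockout sample lay below every untreated knockout sample, as it did for 10.8% of all tested genes. The same CCl4 doses in wild type moved none of the 50 past the threshold, where 0.853% of tested genes passed, 0.277% lower and 0.576% higher. After CCl4, 22 of the 50 were lower in knockout than in wild type and none was higher, where 4.21% of tested genes were lower and 7.62% higher. For 23 genes every CCl4 knockout sample lay below every CCl4 wild type sample and for none above, where this held for 7.97% and 10.1% of tested genes. Those 2 knockout comparisons share the CCl4 knockout samples. Without CCl4, 1 gene was higher in knockout than in wild type and none lower, where 0.583% and 0.35% were. Without CCl4 knockout replicate 3, 18 genes fell after CCl4 in the knockout, where 4.16% of tested genes did: Otc, Asl, Gls2, Sdsl, Hal, Ftcd, Amdhd1, Hpd, Tdo2, Kynu, Haao, Ido2, Agxt, Prodh, Gnmt, Bckdha, Mccc1 and Mccc2. By pathway these were 3 of 8 urea cycle genes, 4 of 6 serine and histidine, 1 of 5 tyrosine, 4 of 7 tryptophan, 2 of 6 glycine and proline, 1 of 7 methionine and sulfur, and 3 of 8 lysine and branched-chain genes, and 0 of 3 aminotransferases. Without that replicate 8 were lower than in injured wild type, where 1.19% of tested genes were: Hal, Amdhd1, Tdo2, Prodh, Aass, Ivd, Mccc1 and Mccc2. Without replicate 2 these counts were 20 and 12, where 4.35% and 2.78% of tested genes were lower. Fitted on the compared groups alone they were 9 and 11, where 2.21% and 2.38% were lower. Those 9 were Hal, Ftcd, Amdhd1, Tdo2, Haao, Agxt, Gnmt, Bckdha and Mccc2. No urea cycle, tyrosine or aminotransferase gene was among them. With library totals alone 15 fell and 1 rose in the knockout, where 2.59% of tested genes fell.

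**Figure D2:**
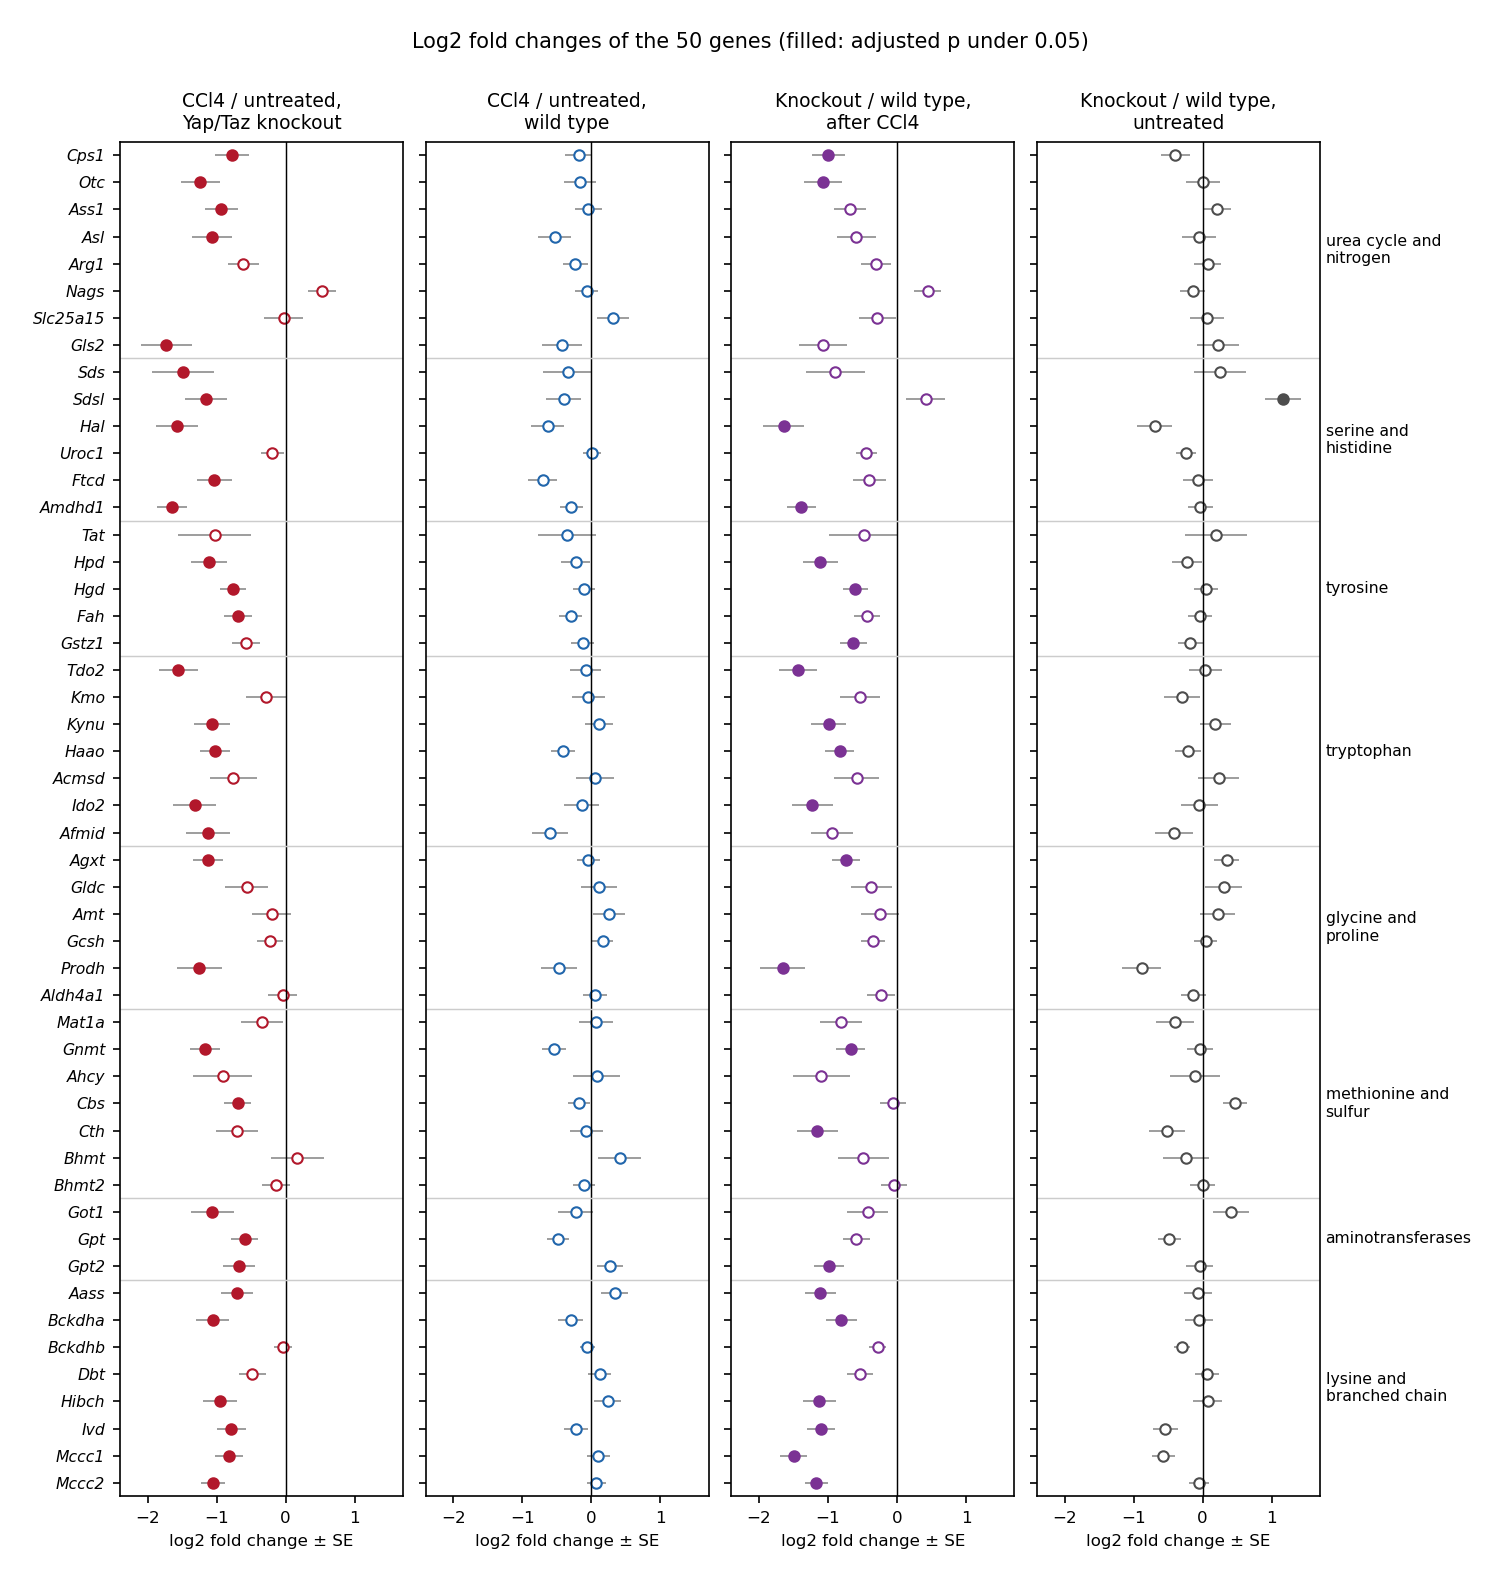
Log2 fold changes of the 50 genes with their standard errors, grouped by pathway, for CCl4 over untreated in the knockout, CCl4 over untreated in wild type, knockout over wild type after CCl4, and knockout over wild type without CCl4; filled points have an adjusted p under 0.05. Filled points lie left of 0 in the first and the third panel (31 and 22 genes), the second has none, and the fourth has Sdsl alone, right of 0.

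Of 8 hepatocyte markers, 1 rose and 1 fell after CCl4 in the knockout. Trf rose by 0.64 ± 0.18 log2 and Apoa1 fell by 0.66 ± 0.21 log2 (adjusted p = 0.0212 and 0.0357), and Alb, the albumin gene, had a log2 change of 0.10 ± 0.23 (adjusted p = 0.832). The median change of all 8 hepatocyte markers was -0.35, below that of Alb, against -0.80 for the 50 genes. All 12 macrophage markers, 8 of 9 endothelial markers and 7 of 8 tested stellate cell markers rose in the same contrast, and no macrophage or endothelial marker was at 0 in these groups, while the stellate markers Acta2 and Pdgfrb were at 0 in untreated knockout. Against injured wild type all 12 macrophage, 3 of 9 endothelial, 1 of 8 hepatocyte and 0 of 8 tested stellate cell markers were higher. Of all tested genes 7.62% were. Without CCl4 knockout replicate 3, 10 of 12 macrophage, 5 of 9 endothelial and 6 of 8 stellate cell markers rose after CCl4 in the knockout. In that fit 7.54% of tested genes rose. Higher than in injured wild type were 1 of 12 macrophage, 0 of 9 endothelial and 0 of 8 stellate cell markers, and 1.75% of tested genes. For the 8 hepatocyte markers, 1 rose and 0 fell after CCl4 in the knockout without that replicate. Without replicate 2, 0 of the hepatocyte markers rose and 1 fell. Against injured wild type 1 hepatocyte marker was higher without replicate 3 and 0 without replicate 2. Summed stellate markers had 90.6 to 167 CPM in CCl4 knockout and 6.31 to 8.96 CPM in untreated knockout samples, and summed endothelial markers had 105 to 690.4 CPM in CCl4 knockout and 17.6 to 24.6 CPM in untreated knockout samples. The part of these cells in the falls of the 50 genes was not tested.

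The promoters of 4 genes are shown, all of which passed in both knockout comparisons under every alternative tried. Amdhd1 and Mccc2 also passed in the contrast of CCl4 responses between genotypes, a call lost in most alternatives. Hal and Tdo2 encode the first enzymes of histidine and tryptophan breakdown. Each promoter window runs from 250 bases before to 50 after the RefSeq start on GRCm38.p6. Such a window was there for 38 of the 50 genes, 41 windows in all of 32851. They were searched on both strands for GGAATG (bound by TEAD, the partner of Yap and Taz), TTGCNNAA (C/EBP), CAAAGTNCA (HNF4) and TATAAA (the box of many core promoters), and matches are in capitals.
Hal, chr10:93488518-93488817, plus strand: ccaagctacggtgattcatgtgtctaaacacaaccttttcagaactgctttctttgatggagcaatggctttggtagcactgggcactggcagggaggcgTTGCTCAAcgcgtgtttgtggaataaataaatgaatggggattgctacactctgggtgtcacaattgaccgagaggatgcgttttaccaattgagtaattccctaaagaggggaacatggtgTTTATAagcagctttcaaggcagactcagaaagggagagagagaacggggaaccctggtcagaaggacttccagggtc
Amdhd1, chr10:93539984-93540283, minus strand: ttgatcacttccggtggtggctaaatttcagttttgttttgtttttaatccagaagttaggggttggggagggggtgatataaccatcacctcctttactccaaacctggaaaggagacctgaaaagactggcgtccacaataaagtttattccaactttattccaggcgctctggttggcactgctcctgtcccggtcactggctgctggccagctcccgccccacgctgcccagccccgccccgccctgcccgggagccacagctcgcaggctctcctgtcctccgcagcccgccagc
Tdo2, chr3:81975679-81975978, minus strand: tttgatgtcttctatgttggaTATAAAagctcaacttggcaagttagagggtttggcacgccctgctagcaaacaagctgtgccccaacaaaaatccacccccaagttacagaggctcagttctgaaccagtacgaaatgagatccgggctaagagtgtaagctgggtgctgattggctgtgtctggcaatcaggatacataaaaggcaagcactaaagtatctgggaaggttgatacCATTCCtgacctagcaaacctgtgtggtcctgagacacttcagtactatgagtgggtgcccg
Mccc2, chr13:100015590-100015889, minus strand: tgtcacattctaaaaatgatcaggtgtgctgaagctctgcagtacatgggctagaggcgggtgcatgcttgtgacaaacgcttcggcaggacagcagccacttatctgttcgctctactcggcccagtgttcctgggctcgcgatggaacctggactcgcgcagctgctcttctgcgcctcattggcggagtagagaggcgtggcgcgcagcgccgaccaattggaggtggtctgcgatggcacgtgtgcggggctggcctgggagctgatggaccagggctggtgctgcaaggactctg
The Hal window held the C/EBP letters from base 101 and the TATA letters from base 223, and the Tdo2 window the TATA letters from base 22 and the TEAD letters from base 239. Neither Amdhd1 nor Mccc2 held any of the 4 in these 300 bases. The TEAD letters stood in windows of 4 of these 38 genes (Fah, Gldc, Prodh and Tdo2) and in 14.7% of all windows. The C/EBP letters stood in 3 of the 38 (Aass, Hal and Hgd) and in 10.8% of all windows, the HNF4 letters in 1 of the 38 (Ftcd) and in 1.41%, and the TATAAA letters in 4 of the 38 (Ftcd, Hal, Hgd and Tdo2) and in 13.6%. A match is a run of letters and not a measured site.

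In the urea cycle, 5 of 8 genes fell after CCl4 in the knockout: Cps1, Otc, Ass1 and Asl, which lie in order along the cycle, and Gls2, which feeds it. With the compared groups alone none of these 5 passed. Without CCl4 knockout replicate 3, Cps1 and Ass1 did not pass in the knockout (adjusted p = 0.128 and 0.0728). Without it, Cps1 and Otc did not pass against injured wild type (adjusted p = 0.0645 and 0.13). Cps1 (ENSMUSG00000025991, chromosome 1, 67123026 to 67231259, mm10), whose enzyme makes carbamoyl phosphate and sets the pace of the cycle, had 2994, 2502 and 1215 CPM in CCl4 knockout samples, against 4068, 3258, 3994 and 4077 CPM in untreated knockout samples. In wild type, CCl4 samples had 4236, 4762, 3724, 5077 and 4493 CPM, against 5609, 4804, 6249, 4483 and 4169 CPM in untreated wild type samples. The CCl4 knockout samples lay below all others, with replicate 3 the lowest. Cps1 fell by 0.78 ± 0.25 log2 after CCl4 in the knockout (adjusted p = 0.0334) and had a log2 change of -0.18 ± 0.20 in wild type (adjusted p = 0.729). Knockout against wild type after CCl4 it was at -0.995 ± 0.24 log2 (adjusted p = 0.0131). Otc, the X-linked enzyme that joins carbamoyl phosphate to ornithine, had 341, 201 and 179 CPM in CCl4 knockout samples, against 399.9, 844, 496 and 522 CPM in untreated knockout samples. The CCl4 wild type values of Otc were 427, 619, 475, 609 and 400.2 CPM, against 609.8, 672, 665, 478 and 404 CPM in untreated wild type samples. Its CCl4 knockout values stayed below all 14 others, and the wild type groups overlapped. The log2 changes were -1.23 ± 0.29 in the knockout (adjusted p = 0.00657), -0.16 ± 0.23 in wild type (adjusted p = 0.808) and -1.07 ± 0.28 between genotypes after CCl4 (adjusted p = 0.0193). Gls2, the liver glutaminase that frees ammonia from glutamine beside the cycle, had 300.4, 229 and 98.1 CPM in CCl4 knockout samples, against 1106, 659.5, 442 and 565 CPM in untreated knockout samples. Wild type samples given CCl4 had Gls2 at 502, 444, 270.2, 563 and 427 CPM, against 659, 562, 622, 687 and 428 CPM in untreated wild type samples. Untreated knockout replicate 1 stood above the rest, and the CCl4 knockout samples overlapped the lowest CCl4 wild type sample. It had the lowest log2 change of the 50 in the knockout, -1.73 ± 0.37 (adjusted p = 0.00364), and between genotypes after CCl4 it was at -1.08 ± 0.35, short of the threshold (adjusted p = 0.0536). Ass1 and Asl, which make and split argininosuccinate, fell by 0.93 ± 0.24 and 1.07 ± 0.29 log2 in the knockout (adjusted p = 0.0126 and 0.017). Neither passed between genotypes after CCl4, at -0.68 ± 0.23 and -0.59 ± 0.28 log2. Arg1, which releases urea, was at -0.61 ± 0.22 log2 in the knockout (adjusted p = 0.0682). Slc25a15, the mitochondrial ornithine carrier, was at -0.03 ± 0.28 log2 (adjusted p = 0.962). Nags, which makes the activator of Cps1, was 1 of 2 genes with a positive value, 0.52 ± 0.20 log2 (adjusted p = 0.0872), and its 3 CCl4 knockout samples at 70.5, 96.6 and 85.3 CPM lay above the 4 untreated knockout samples at 60.2, 52.5, 60.6 and 61.0 CPM. It was the only member for which that held, where 14.4% of all tested genes did.

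Transcripts of histidine breakdown fell in 3 of 4 genes, Hal, Amdhd1 and Ftcd, after CCl4 in the knockout. Hal and Amdhd1 lie next to each other on chromosome 10, at 93488768 to 93519304 and 93523338 to 93540033 on opposite strands. Hal (ENSMUSG00000020017), histidase, the first step, had 206, 124 and 142 CPM in CCl4 knockout samples, against 335, 779, 379.5 and 379 CPM in untreated knockout samples. Hal in CCl4 wild type samples was at 538, 625, 383, 544 and 364 CPM, against 606, 864, 795, 895 and 634 CPM in untreated wild type samples. All CCl4 knockout values were below all others, 1 untreated knockout sample (replicate 2) lay far above its group, and the 2 wild type groups overlapped by 1 sample each. Hal fell by 1.57 ± 0.30 log2 in the knockout (adjusted p = 0.00192) and was at -1.64 ± 0.29 log2 against injured wild type (adjusted p = 0.00241). In wild type its change was -0.63 ± 0.24 (adjusted p = 0.221). Amdhd1 (ENSMUSG00000015890), which opens the imidazolone ring in the third step, had 115, 73.5 and 61.8 CPM in CCl4 knockout samples, against 219.7, 318, 247 and 256 CPM in untreated knockout samples. CCl4 wild type samples had 231, 247, 185, 241 and 185 CPM, against 242, 272, 312, 283 and 221 CPM in untreated wild type samples. The CCl4 knockout samples reached at most 115 CPM, below the lowest value of every other group. Its log2 change in the knockout was -1.64 ± 0.22 (adjusted p = 0.000277), the smallest p of the 50 in that comparison, and after CCl4 it was at -1.38 ± 0.21 against wild type (adjusted p = 0.000851). The wild type change was -0.29 ± 0.17 (adjusted p = 0.461). Ftcd, which hands the last fragment of histidine to folate, fell by 1.04 ± 0.26 log2 in the knockout (adjusted p = 0.00922). It had the smallest adjusted p of the 50 in wild type, 0.132, at -0.70 ± 0.21 log2. Uroc1, urocanase, between Hal and Amdhd1, was at -0.19 ± 0.16 log2 in the knockout (adjusted p = 0.486). Whether Uroc1 changed less than its neighbours in the pathway was not tested.

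The serine dehydratases Sds and Sdsl, neighbours on chromosome 5, fell after CCl4 in the knockout by 1.48 ± 0.45 and 1.15 ± 0.31 log2 (adjusted p = 0.029 and 0.0138). Sds turns serine into pyruvate, and Sdsl is its paralog. Sdsl had 16.9, 10.8 and 16.5 CPM in CCl4 knockout samples, against 55.9, 26.3, 23.0 and 25.4 CPM in untreated knockout samples. In wild type, CCl4 samples had 10.3, 12.6, 6.81, 14.1 and 11.3 CPM, against 13.4, 13.8, 12.5, 15.3 and 17.9 CPM in untreated wild type samples. Every untreated knockout sample was above every wild type sample, and the CCl4 knockout values lay within the range of both wild type groups together. Sdsl was the only gene of the 50 that differed between untreated knockout and untreated wild type, at 1.17 ± 0.26 log2 (adjusted p = 0.0421). After CCl4 the log2 difference between genotypes was 0.42 ± 0.28 (adjusted p = 0.391). Without untreated knockout replicate 1, at 55.9 CPM, the untreated difference no longer passed (adjusted p = 0.172).

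**Figure D3:**
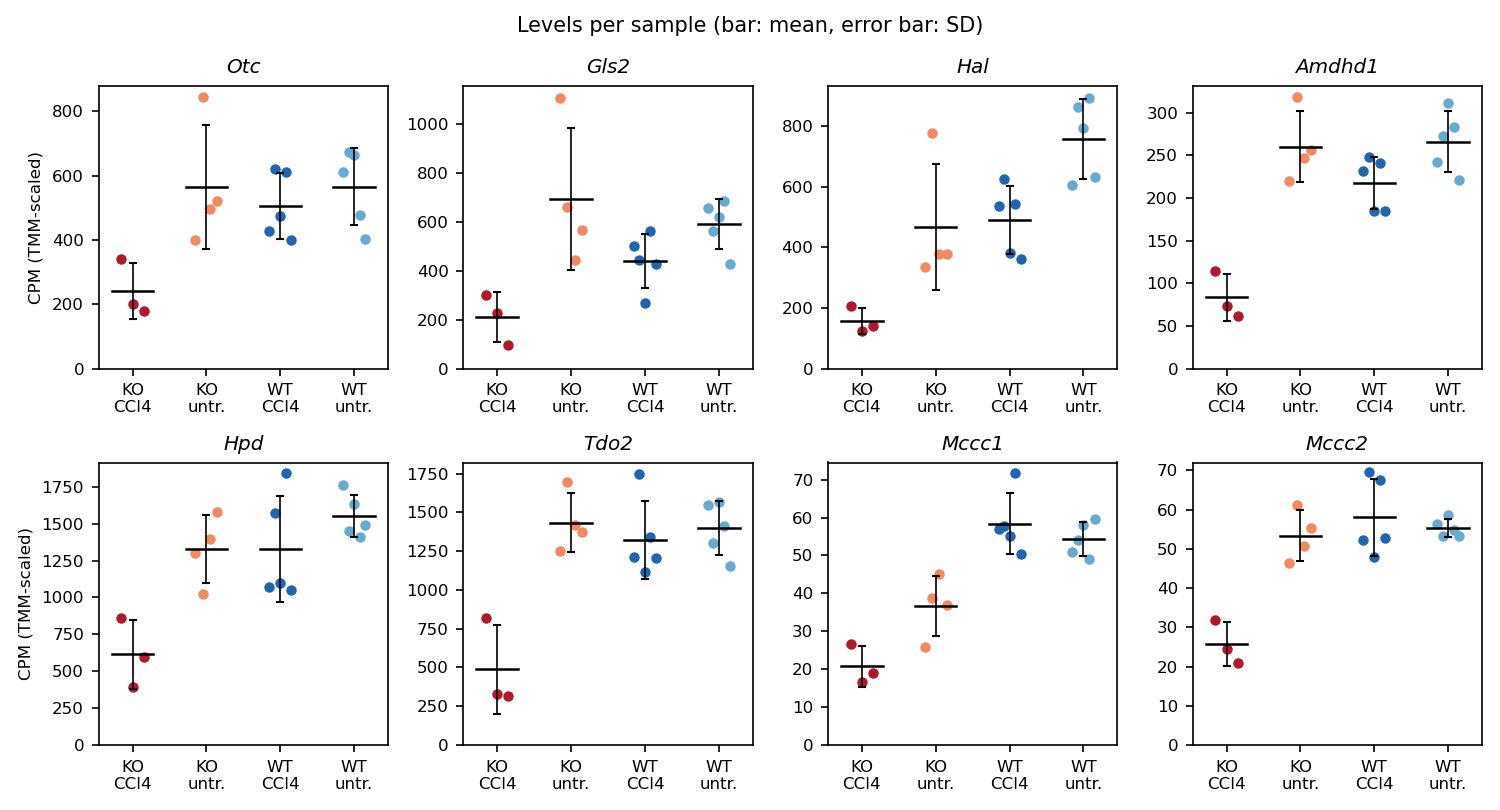
CPM of Otc, Gls2, Hal, Amdhd1, Hpd, Tdo2, Mccc1 and Mccc2 in every sample of the 4 groups, each on its own axis from 0, with bars for the mean and SD. CCl4 knockout samples are the lowest group in all 8 panels, and for Mccc1 the untreated knockout samples, at 25.9 to 45.1 CPM, also lie below both wild type groups.

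Tyrosine breakdown fell in 3 of 5 genes, Hpd, Hgd and Fah, which act in the second, the third and the last step. Hpd, 4-hydroxyphenylpyruvate dioxygenase, had 858, 393 and 595 CPM in CCl4 knockout samples, against 1302, 1026, 1394 and 1578 CPM in untreated knockout samples. The CCl4 wild type values of Hpd were 1068, 1575, 1101, 1841 and 1049 CPM, against 1759, 1452, 1632, 1412 and 1492 CPM in untreated wild type samples. No CCl4 knockout sample reached the lowest value of another group. It fell by 1.11 ± 0.26 log2 in the knockout (adjusted p = 0.00667), with -0.22 ± 0.21 in wild type (adjusted p = 0.676) and -1.11 ± 0.25 between genotypes after CCl4 (adjusted p = 0.0097). Hgd, homogentisate dioxygenase, had 393, 280.5 and 235 CPM in CCl4 knockout samples, against 533, 499, 508 and 516 CPM in untreated knockout samples. Wild type samples given CCl4 had Hgd at 439, 541, 377, 572 and 370.5 CPM, against 464, 420.3, 568, 531 and 501 CPM in untreated wild type samples. The knockout groups were apart, while CCl4 knockout replicate 1 lay above 2 of the CCl4 wild type samples. Hgd fell by 0.76 ± 0.20 log2 (adjusted p = 0.0113) and after CCl4 was at -0.60 ± 0.19 against wild type (adjusted p = 0.0465). Fah, fumarylacetoacetase, had 449.7, 311 and 403 CPM in CCl4 knockout samples, against 512, 699.8, 639 and 657 CPM in untreated knockout samples. Fah in CCl4 wild type samples was at 476, 596, 403, 708 and 435 CPM, against 719, 728, 614, 567 and 598 CPM in untreated wild type samples. It fell by 0.69 ± 0.20 log2 in the knockout (adjusted p = 0.0238), where its groups did not overlap, but overlapped wild type after CCl4, at -0.43 ± 0.19 log2 (adjusted p = 0.167). Gstz1, maleylacetoacetate isomerase, passed only between genotypes after CCl4, at -0.63 ± 0.20 log2 (adjusted p = 0.048), and was at -0.57 ± 0.21 in the knockout (adjusted p = 0.0617). Tat, tyrosine aminotransferase, the first step, was at -1.03 ± 0.53 log2 (adjusted p = 0.203), and its untreated knockout samples ran from 756 to 3340.0 CPM.

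Of the 7 tryptophan genes, 5 fell after CCl4 in the knockout. Tdo2 (ENSMUSG00000028011, chromosome 3, 81957090 to 81976202), the dioxygenase that commits tryptophan to the kynurenine pathway in liver, had 819.9, 328 and 317 CPM in CCl4 knockout samples, against 1252, 1698, 1417 and 1371 CPM in untreated knockout samples. CCl4 wild type samples had 1209, 1745, 1114, 1339 and 1204 CPM, against 1548, 1303, 1569.6, 1414 and 1153 CPM in untreated wild type samples. CCl4 knockout replicates 2 and 3 lay far below every sample outside the group, and replicate 1 lay between. Tdo2 fell by 1.55 ± 0.29 log2 in the knockout (adjusted p = 0.00153). After CCl4 it was at -1.44 ± 0.28 log2 against wild type (adjusted p = 0.00378), and the wild type change was -0.08 ± 0.23 (adjusted p = 0.919). Haao, which makes the precursor of quinolinate, had 209, 151 and 186 CPM in CCl4 knockout samples, against 320.5, 451, 362 and 346 CPM in untreated knockout samples. In wild type, CCl4 samples had 271, 371, 248, 468 and 261 CPM, against 415, 391, 452, 417 and 469 CPM in untreated wild type samples. Its 3 CCl4 knockout values were the lowest of the 17. Haao fell by 1.02 ± 0.21 log2 in the knockout (adjusted p = 0.00335) and was at -0.83 ± 0.21 against injured wild type (adjusted p = 0.0155). Ido2, which catalyses the same first reaction as Tdo2, had 54.7, 24.6 and 16.5 CPM in CCl4 knockout samples, against 57.7, 78.6, 94.0 and 88.8 CPM in untreated knockout samples. The CCl4 wild type values of Ido2 were 68.3, 80.2, 70.0, 87.4 and 67.7 CPM, against 94.7, 67.5, 99.4, 85.6 and 65.0 CPM in untreated wild type samples. CCl4 knockout replicate 1 lay just under the lowest untreated knockout sample, and replicates 2 and 3 far below it. The falls were -1.32 ± 0.31 log2 in the knockout (adjusted p = 0.007) and -1.23 ± 0.30 against injured wild type (adjusted p = 0.0149). Kynu, kynureninase, fell by 1.07 ± 0.26 log2 in the knockout (adjusted p = 0.00831) and was at -0.99 ± 0.25 against injured wild type (adjusted p = 0.0171). Afmid, the formamidase of the second step, fell by 1.13 ± 0.32 log2 in the knockout (adjusted p = 0.0195) and was at -0.94 ± 0.31 against injured wild type (adjusted p = 0.055). Kmo, kynurenine monooxygenase, and Acmsd, which steers the pathway away from NAD, had log2 changes of -0.28 ± 0.30 and -0.76 ± 0.34 in the knockout (adjusted p = 0.596 and 0.141).

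In the glycine and proline group 2 of 6 genes fell after CCl4 in the knockout, Agxt and Prodh. Agxt, which turns glyoxylate into glycine, had 221, 135 and 176 CPM in CCl4 knockout samples, against 405, 434, 340.4 and 371 CPM in untreated knockout samples. Wild type samples given CCl4 had Agxt at 297, 329, 229, 373 and 247 CPM, against 259, 295, 329, 384 and 252 CPM in untreated wild type samples. The injured knockout samples were below every other sample, replicate 2 the lowest. It fell by 1.13 ± 0.21 log2 (adjusted p = 0.00174) and was at -0.73 ± 0.20 against injured wild type (adjusted p = 0.0276). Prodh, proline dehydrogenase, had 42.3, 22.8 and 32.8 CPM in CCl4 knockout samples, against 64.2, 48.0, 84.4 and 114 CPM in untreated knockout samples. Prodh in CCl4 wild type samples was at 88.2, 115, 85.3, 151 and 75.0 CPM, against 220.0, 129, 118, 119 and 129 CPM in untreated wild type samples. The groups stepped apart here: the CCl4 knockout samples lay below all others, and the untreated knockout samples lay below every untreated wild type sample. Prodh fell by 1.25 ± 0.33 log2 in the knockout (adjusted p = 0.0128) and after CCl4 was at -1.66 ± 0.32 against wild type (adjusted p = 0.00409), the lowest value of the 50 in that comparison. Untreated knockout against untreated wild type it was at -0.88 ± 0.28 log2, short of the threshold (adjusted p = 0.227). Gcsh, Gldc and Amt encode parts of the glycine cleavage system, and none passed, with log2 changes in the knockout of -0.22 ± 0.19, -0.57 ± 0.31 and -0.20 ± 0.28. Gcsh had 65.0, 72.1 and 55.8 CPM in CCl4 knockout samples, against 54.4, 81.3, 82.1 and 82.7 CPM in untreated knockout samples. CCl4 wild type samples had 67.1, 102, 69.2, 91.1 and 79.7 CPM, against 76.2, 65.0, 68.3, 86.5 and 68.7 CPM in untreated wild type samples. Its groups overlapped in all 4 comparisons. Aldh4a1, which follows Prodh, was at -0.04 ± 0.21 log2 in the knockout and -0.24 ± 0.20 against injured wild type (adjusted p = 0.923 and 0.506).

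Methionine and sulfur genes fell in 2 of 7 after CCl4 in the knockout, Gnmt and Cbs. Gnmt, which spends S-adenosylmethionine on glycine and is among the most abundant of these transcripts, had 833, 500.1 and 807 CPM in CCl4 knockout samples, against 1728, 1827, 1369 and 1488 CPM in untreated knockout samples. In wild type, CCl4 samples had 1093, 1211, 886, 1524 and 962 CPM, against 1994, 1490.5, 1542, 1659.9 and 1566 CPM in untreated wild type samples. The CCl4 knockout samples were below all others, and in wild type the CCl4 group lay lower with an overlap at its top sample. It fell by 1.17 ± 0.22 log2 in the knockout (adjusted p = 0.00163), was at -0.54 ± 0.18 in wild type (adjusted p = 0.16) and at -0.67 ± 0.21 between genotypes after CCl4 (adjusted p = 0.0446). Cth, cystathionine gamma-lyase, had 252, 111 and 174 CPM in CCl4 knockout samples, against 239, 395, 254 and 282 CPM in untreated knockout samples. The CCl4 wild type values of Cth were 381, 472, 297, 543 and 299.5 CPM, against 434, 362, 604, 389 and 303 CPM in untreated wild type samples. CCl4 knockout replicate 1 lay among the untreated knockout samples, and all 3 lay below the CCl4 wild type samples. Its log2 changes were -0.71 ± 0.30 in the knockout (adjusted p = 0.12) and -1.15 ± 0.30 against injured wild type (adjusted p = 0.0185). Cbs, cystathionine beta-synthase, the step before, had 644, 446 and 416 CPM in CCl4 knockout samples, against 857, 724, 857 and 813 CPM in untreated knockout samples. Wild type samples given CCl4 had Cbs at 639, 487, 504, 532 and 446 CPM, against 469, 469, 743, 671 and 595 CPM in untreated wild type samples. Its untreated knockout samples were the highest group, overlapped by 1 untreated wild type sample at 743 CPM. Cbs fell by 0.70 ± 0.20 log2 in the knockout (adjusted p = 0.0212) and was at -0.06 ± 0.19 against injured wild type (adjusted p = 0.894). Mat1a, which makes S-adenosylmethionine, was at -0.35 ± 0.31 log2 in the knockout, Ahcy at -0.91 ± 0.42, and the betaine-using methyltransferases Bhmt and Bhmt2 at 0.17 ± 0.38 and -0.14 ± 0.20 (adjusted p = 0.508, 0.157, 0.824 and 0.7).

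All 3 aminotransferases fell after CCl4 in the knockout, and none of them passed without CCl4 knockout replicate 3 or without replicate 2. Gpt2, the mitochondrial alanine aminotransferase, had 263, 229 and 147 CPM in CCl4 knockout samples, against 354, 215, 375 and 414 CPM in untreated knockout samples. Gpt2 in CCl4 wild type samples was at 401, 383, 379, 502 and 440.0 CPM, against 439.5, 318, 333, 342 and 315 CPM in untreated wild type samples. CCl4 knockout replicates 1 and 2 lay above the lowest untreated knockout sample, while all 3 lay below both wild type groups. It fell by 0.67 ± 0.23 log2 in the knockout (adjusted p = 0.0488) and was at -0.98 ± 0.22 against injured wild type (adjusted p = 0.00964). Got1, the cytosolic aspartate aminotransferase, had 226, 117 and 124 CPM in CCl4 knockout samples, against 287, 294, 359.6 and 361 CPM in untreated knockout samples. CCl4 wild type samples had 178, 181, 116, 368 and 203 CPM, against 283, 199, 229, 268 and 245 CPM in untreated wild type samples. The knockout groups were apart and the CCl4 knockout samples overlapped both wild type groups. Got1 fell by 1.06 ± 0.31 log2 (adjusted p = 0.025), with -0.42 ± 0.30 against injured wild type (adjusted p = 0.404). Gpt, the cytosolic alanine aminotransferase, had 179, 191 and 189 CPM in CCl4 knockout samples, against 279, 312, 247 and 287 CPM in untreated knockout samples. In wild type, CCl4 samples had 259.8, 322, 193, 379 and 245 CPM, against 469, 375, 330.0, 380.4 and 409.9 CPM in untreated wild type samples. The CCl4 knockout samples agreed closely and lay below all others, and untreated knockout lay below untreated wild type. Gpt fell by 0.59 ± 0.20 log2 in the knockout (adjusted p = 0.0429) and had a log2 change of -0.49 ± 0.16 in wild type (adjusted p = 0.164). Its value against injured wild type was -0.59 ± 0.19 (adjusted p = 0.0533).

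Lysine and branched-chain genes fell in 6 of 8 after CCl4 in the knockout: Aass, Bckdha, Hibch, Ivd, Mccc1 and Mccc2. Mccc1 (ENSMUSG00000027709, chromosome 3, 35959312 to 36000678), the biotin subunit of methylcrotonyl-CoA carboxylase in leucine breakdown, had 26.7, 16.5 and 19.0 CPM in CCl4 knockout samples, against 25.9, 38.9, 45.1 and 36.9 CPM in untreated knockout samples. The CCl4 wild type values of Mccc1 were 57.0, 57.7, 55.1, 71.7 and 50.5 CPM, against 50.8, 54.1, 58.1, 49.0 and 59.6 CPM in untreated wild type samples. Both knockout groups lay below every wild type sample, and CCl4 knockout replicate 1 overlapped the lowest untreated knockout sample. It fell by 0.82 ± 0.20 log2 in the knockout (adjusted p = 0.00789) and was at -1.50 ± 0.20 against injured wild type (adjusted p = 0.00034), the smallest p of the 50 there. Without CCl4 it was at -0.57 ± 0.17 (adjusted p = 0.186). Mccc2 (ENSMUSG00000021646, chromosome 13, 99948530 to 100015639), the other subunit of that carboxylase, had 31.9, 24.6 and 21.0 CPM in CCl4 knockout samples, against 46.3, 61.3, 50.7 and 55.3 CPM in untreated knockout samples. Wild type samples given CCl4 had Mccc2 at 52.1, 69.5, 47.9, 67.6 and 52.9 CPM, against 56.4, 53.2, 58.7, 54.8 and 53.2 CPM in untreated wild type samples. The CCl4 knockout samples were far below the other 3 groups, which overlapped each other. Its log2 changes were -1.05 ± 0.17 in the knockout (adjusted p = 0.000806), 0.07 ± 0.14 in wild type (adjusted p = 0.868) and -1.17 ± 0.17 between genotypes after CCl4 (adjusted p = 0.000642). Ivd, isovaleryl-CoA dehydrogenase, the step before, had 102, 82.1 and 47.6 CPM in CCl4 knockout samples, against 149, 99.1, 144 and 141 CPM in untreated knockout samples. Ivd in CCl4 wild type samples was at 150.4, 181, 161, 179.9 and 156 CPM, against 206, 182, 205, 202 and 175 CPM in untreated wild type samples. Untreated knockout replicate 2 lay within the CCl4 knockout range, and all 7 knockout samples lay below every wild type sample. Ivd fell by 0.78 ± 0.21 log2 in the knockout (adjusted p = 0.0149) and was at -1.10 ± 0.21 against injured wild type (adjusted p = 0.00313), with -0.54 ± 0.18 without CCl4 (adjusted p = 0.273). Aass, which starts lysine breakdown, fell by 0.70 ± 0.23 log2 in the knockout and was at -1.11 ± 0.23 against injured wild type (adjusted p = 0.0438 and 0.0054). The knockout call of Aass was kept in 7 of 26 alternatives. Hibch, of valine breakdown, fell by 0.96 ± 0.25 and was at -1.12 ± 0.24 log2 (adjusted p = 0.0115 and 0.0068). Of the branched-chain ketoacid dehydrogenase, Bckdha fell by 1.06 ± 0.23 log2 in the knockout and was at -0.81 ± 0.22 against injured wild type (adjusted p = 0.00454 and 0.0279). Its partners Bckdhb and Dbt were at -0.04 ± 0.13 and -0.48 ± 0.20 log2 in the knockout (adjusted p = 0.881 and 0.106).

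In wild type the question was whether the same CCl4 doses touched this chemistry with Yap and Taz present. None of the 50 passed, and their log2 changes ran from -0.70 ± 0.21 for Ftcd to 0.41 ± 0.31 for Bhmt, with a median of -0.11 against -0.01 over all tested genes. With library totals alone in place of TMM the sign turned, to a median of 0.27, below that of all tested genes at 0.38. At an unadjusted p under 0.05 there were 7, where 2023 of 13721 tested genes were. DESeq2 called 1 lower, where 1.28% of tested genes were. For 41 of the 50 the 95% interval of the change lay inside -1 to 1 log2. Ftcd was the 1 gene whose CCl4 samples all lay below the untreated ones, where 1.69% of tested genes did, and none had them all above, where 3.15% did. It had 362, 390.2, 333, 425 and 284 CPM in CCl4 wild type samples, against 764, 815, 484, 433 and 426 CPM in untreated wild type samples.

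Without injury, loss of Yap and Taz left the 50 genes with a median log2 change of -0.04, against -0.01 over all tested genes (0.10 against 0.14 with library totals alone), and Sdsl alone passed. At an unadjusted p under 0.05 there were 8, where 1203 of 13721 tested genes were. For 44 of the 50 the 95% interval lay inside -1 to 1 log2. Groups did not overlap for 6 genes that were lower in knockout (Cps1, Prodh, Gpt, Bckdhb, Ivd and Mccc1) and for 2 that were higher (Sdsl and Got1), where this held for 1.89% and 1.76% of tested genes. Bckdhb was at -0.30 ± 0.12 log2 (adjusted p = 0.39) and Cps1 at -0.40 ± 0.21 (adjusted p = 0.658).

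Whether the response to CCl4 differed by genotype was tested as a contrast of its own. It passed for Amdhd1 at -1.35 ± 0.27 log2 and Mccc2 at -1.12 ± 0.22 log2 (adjusted p = 0.0407 and 0.0382), both lower, and for no gene higher, where 1.09% of tested genes passed, 0.299% lower and 0.794% higher. The difference was below 0 for 48 of the 50, with a median of -0.64 against 0.04 over all tested genes. Of the 50, 21 had an unadjusted p under 0.05, where 2343 of 13721 tested genes did. Tdo2 and Agxt came next by p, at -1.47 ± 0.36 and -1.08 ± 0.27 log2 (adjusted p = 0.0578 and 0.0586). No gene of the 50 passed in 13 of 17 fits that each left out 1 sample: those without CCl4 knockout replicate 2 or 3, any untreated knockout, any CCl4 wild type sample, or untreated wild type replicate 4 or 5. Without CCl4 knockout replicate 1, 14 passed, and the share of all tested genes in that fit is not given here. Over all 25 alternatives, none passed in 18.

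Around the 50 genes, 95 more of the same pathways and their regulators were listed, of which 93 were in the table and 88 were tested. After CCl4 in the knockout 34 (38.6%) fell and 5 (5.68%) rose, beside 6.96% and 12.1% of all tested genes, with a median of -0.51 log2 against 0.01. Branched-chain and lysine genes gave 11 falls of 19, phenylalanine, tyrosine and tryptophan genes 5 of 11, and methionine and sulfur genes 6 falls and 1 rise of 16. Serine, glycine, threonine and proline genes gave 6 falls and 3 rises of 18, ammonia, glutamine and urea cycle genes 3 falls and 1 rise of 11, and regulators 3 falls of 13. With library totals alone 7 of the 88 fell, and with the compared groups alone 5, where 2.59% and 2.21% of tested genes fell. Auh, which acts after Mccc1 and Mccc2 in leucine breakdown, had 18.0, 13.8 and 17.2 CPM in CCl4 knockout samples, against 37.4, 47.6, 36.7 and 39.0 CPM in untreated knockout samples. Aadat, a kynurenine and aminoadipate aminotransferase, had 65.3, 33.2 and 25.8 CPM in CCl4 knockout samples, against 131, 239, 178 and 163 CPM in untreated knockout samples. Gcdh, of lysine and tryptophan breakdown, had 245, 196 and 132 CPM in CCl4 knockout samples, against 340.3, 391, 404 and 446 CPM in untreated knockout samples. For all 3 the CCl4 knockout samples lay below the untreated ones, and the genes fell by 1.30 ± 0.17, 2.10 ± 0.32 and 1.05 ± 0.18 log2 (adjusted p = 0.000289, 0.000521 and 0.00113). Against injured wild type Gcdh was at -1.04 ± 0.18, Auh at -0.95 ± 0.17 and Car5a, the mitochondrial anhydrase that supplies Cps1 with bicarbonate, at -1.37 ± 0.24 log2 (adjusted p = 0.00185, 0.00213 and 0.00239). Without CCl4 knockout replicate 3, 14 of the related genes fell and 3 rose in the knockout, where 4.16% of tested genes fell and 7.54% rose. Falls were then 6 of 20 branched-chain and lysine genes, 2 of 11 phenylalanine, tyrosine and tryptophan genes and 1 of 16 methionine and sulfur genes. Serine, glycine, threonine and proline genes gave 2 falls and 3 rises of 18. Ammonia, glutamine and urea cycle genes gave 2 falls of 11, and regulators 1 of 13. Against injured wild type 20 of the 88 (22.7%) were lower and 3 (3.41%) higher, beside 4.21% and 7.62% of all tested genes. Without that replicate 6 were lower and 1 higher, where 1.19% of tested genes were lower and 1.75% higher.

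Psph, Psat1, Aldh18a1 and Mtr were among the 5 that rose in the knockout. Psph, the last enzyme of serine synthesis, had 12.3, 14.98 and 15.3 CPM in CCl4 knockout samples, against 2.63, 4.54, 3.63 and 5.44 CPM in untreated knockout samples. CCl4 wild type samples had 6.30, 4.29, 3.35, 3.81 and 3.21 CPM, against 3.23, 4.00, 5.59, 3.61 and 6.94 CPM in untreated wild type samples. The 3 CCl4 knockout samples lay above the other 14, and Psph rose by 1.81 ± 0.31 log2 in the knockout (adjusted p = 0.00098) and was at 1.76 ± 0.29 against injured wild type (adjusted p = 0.0014). Psat1, the step before it, and Aldh18a1, of proline synthesis, were picked after their values were seen, and rose by 3.03 ± 0.71 and 3.00 ± 0.82 log2 in the knockout (adjusted p = 0.00658 and 0.0161). Mtr, methionine synthase, picked in the same way, rose by 0.87 ± 0.28 log2 (adjusted p = 0.0382). Of the 13 regulators 3 fell in the knockout, none rose and 4 had positive log2 changes. Against injured wild type none passed in edgeR, with 2 at an unadjusted p under 0.05, where 3560 of 13721 tested genes were. The 3 that fell were also picked after their values were seen. Cebpa, a hepatocyte transcription factor, fell by 1.16 ± 0.28 log2 in the knockout (adjusted p = 0.00874). Klf15, an activator of amino acid catabolism, fell by 1.05 ± 0.34 and Gcgr, the glucagon receptor, by 0.76 ± 0.25 (adjusted p = 0.0396 and 0.0409). Without CCl4 knockout replicate 3, Cebpa passed (adjusted p = 0.0347), and Klf15, Gcgr and Mtr did not (adjusted p = 0.17, 0.0689 and 0.0548). The difference of the CCl4 effect passed for Psph at 1.98 ± 0.40, Auh at -1.05 ± 0.22 and Aadat at -1.74 ± 0.39 log2 (adjusted p = 0.0423, 0.0431 and 0.0463). None of the 88 passed in 12 of the 17 fits that each left out 1 sample, among them those without CCl4 knockout replicate 2 or 3, and none in 16 of all 25 alternatives.

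**Figure D4:**
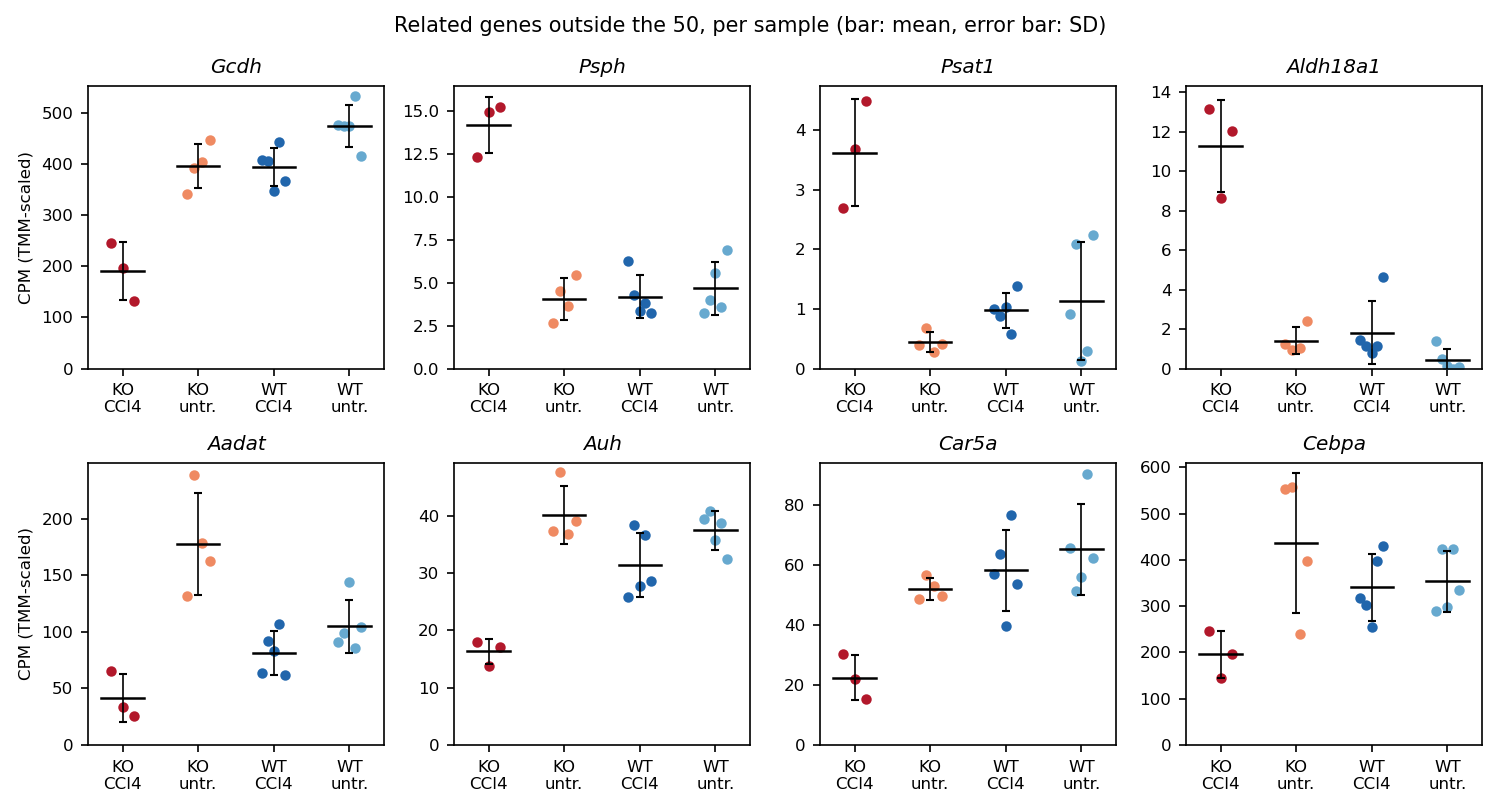
CPM of 8 related genes outside the 50 in every sample of the 4 groups, each on its own axis from 0, with bars for the mean and SD. Psph, Psat1 and Aldh18a1 are highest in the 3 CCl4 knockout samples, and Aadat, Auh, Gcdh, Car5a and Cebpa have their lowest group mean in CCl4 knockout.

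Across the 17 samples the tested genes outside the list whose log2 CPM followed the median of the 50 most closely were Ndrg2 (Pearson r = 0.969), Gcdh (0.959), Cisd1 (0.951), Abhd14b (0.948) and Serpinf1 (0.947). These r describe samples that share group and library, and carry no p. Within the list, Ido2 (0.948), Amdhd1 (0.940) and Tdo2 (0.934) followed the median most closely, which includes them, and Nags (-0.578) ran against it. Exons of 9 of the 50 share bases with a gene on the opposite strand and those of 2 with one on the same strand. The strand setting of the counting is not given in the sources used here. For Nags, Gls2, Sds, Gstz1, Acmsd, Afmid, Bhmt, Bckdha, Mccc1 and Aldh4a1, reads on the shared bases therefore cannot be told apart. The length of the overlaps is not given here.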

How the data were processed

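The authors deposited 1 table of whole-number counts per gene with a column for each of 17 samples. Reads were aligned to mm10 with STAR 2.4.1d, per the submitters' processing notes, which also name FastQC, DESeq2, edgeR and limma. What counted the reads, on which strand and with which gene models is not stated in the sources used here. Per the labels' protocols, RNA came from a Qiagen MicroRNEasy kit and libraries from a NEBNext Ultra II RNA kit.

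Counts were tested in R 4.3.3 with edgeR 4.0.16 (TMM, quasi-likelihood F test, robust estimation), all 17 samples and 4 groups in 1 fit. Genes were kept by filterByExpr (minimum count 10, minimum total 15), and p values were adjusted by Benjamini-Hochberg over 13721 genes, and 0.05 was the threshold for a call. Unless another tool is named, adjusted p values are edgeR's. Errors of log2 changes are standard errors, the log2 change over the square root of F. Levels are CPM on TMM-scaled library sizes, listed in order of replicate number, and summed markers are CPM of total counts. Exon lengths, positions and symbols are from GENCODE on mm10, and promoters from RefSeq. The closest replicate pair differed by a chi-square of 23.4 per gene, so no library was counted double.

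The 50 genes, the lists around them, the tests and the alternatives were chosen with earlier results of these data known. Every gene called in a comparison is named there, and values in every sample are given for the 3 genes per pathway with the smallest unadjusted p over the 5 comparisons. Of related genes, up to 4 called with the smallest adjusted p are named per comparison, and 1 that this rule picks is not reported here. Alternatives were RLE, library totals alone, no filter, CPM of at least 1 in 5 samples, DESeq2 1.42.0, limma voom 3.58.1, the compared groups alone, a replicate block, 2 libraries left out for mitochondrial counts, and each sample left out. Counts of pathways, lists and markers without CCl4 knockout replicate 2 or 3 were added with the data already seen. The scripts were tested on simulated data.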

Additional observations from a re-analysis of the deposited data

Results flagged for a closer look

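Among 72 groups of 4 or 5 samples of the genes given in every sample, 7 held a value far from the rest, where chance gives about 1 in 20. Untreated knockout replicate 2 had Cps1 at 3258 CPM, below 3994 to 4077 CPM in the other 3 samples, Hal at 779 CPM, above 335 to 379.5 CPM, and Ivd at 99.1 CPM, below 141 to 149 CPM. Untreated knockout replicate 1 had Gcsh at 54.4 CPM, below 81.3 to 82.7 CPM, and Sdsl at 55.9 CPM, above 23.0 to 26.3 CPM. Untreated wild type replicate 1 had Gpt2 at 439.5 CPM, above 315 to 342 CPM, and Prodh at 220.0 CPM, above 118 to 129 CPM.

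In the contrast of CCl4 responses, knockout minus wild type, the difference was -1.35 log2 for Amdhd1 and -1.12 for Mccc2 among the 50 genes. Among the related genes it was -1.74 log2 for Aadat, -1.05 for Auh and 1.98 for Psph. Each passed at an adjusted p under 0.05 in edgeR's test of the difference itself. These calls were not stable: none of the 50 passed in 18 of 25 alternatives and none of the related genes in 16.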

How the results depend on the processing

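No gene among the 50 changed direction in a comparison where it was called, in the alternatives run. Called in every alternative were 9 of 31 genes in the knockout after CCl4 (Hal, Ftcd, Amdhd1, Tdo2, Haao, Agxt, Gnmt, Bckdha and Mccc2) and 8 of 22 against injured wild type (Hal, Amdhd1, Tdo2, Prodh, Aass, Ivd, Mccc1 and Mccc2). The least stable knockout calls, Gpt2, Aass and Gpt, were kept in 4, 7 and 8 of 26 alternatives. Against injured wild type those of Hgd, Gstz1 and Gnmt were kept in 5, 7 and 9 of 26. In the knockout after CCl4, library totals alone gave 15 lower, 1 higher and a median of -0.59 log2, with all tested genes at 0.20 and 83.6% of all calls higher against 63.4%. DESeq2 gave 1 higher, where 1810 of all tested genes were. The compared groups alone gave 9 lower, where 2.21% of tested genes were. Dropping both libraries with over 30% of counts on mitochondrially encoded genes gave 18 lower, where 4.37% were. In wild type, library totals alone gave a median of 0.27 log2 and DESeq2 gave 1 lower. In untreated cells 0 were higher in knockout under limma voom, the replicate block and the compared groups alone. After CCl4, the compared groups alone gave 11 lower in knockout, and dropping those 2 libraries 10. The share of all tested genes in the second of these fits is not given here. For the contrast of CCl4 responses 0 were lower under library totals alone, no filter, limma voom, the replicate block and without those 2 libraries, and 9 under DESeq2. The share of all tested genes beside those 9 is not given here. What caused the differences between alternatives was not tested.

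Leaving out each sample in turn, the knockout after CCl4 gave 18 to 34 lower, 0 to 1 higher and medians of -1.06 to -0.71 log2. In wild type 0 passed. In untreated cells 0 to 1 were higher and 0 to 1 lower. Against injured wild type 8 to 29 were lower, with medians of -0.89 to -0.55 log2. For the contrast of responses 0 to 14 were lower. The extremes 18 and 8 came without CCl4 knockout replicate 3, where 4.16% and 1.19% of tested genes were lower. The extremes 34, 29 and 14 came without replicate 1. Beside the 34, 7.82% of tested genes fell, and for the 29 and the 14 that share is not given here. The labels say that replicate numbers do not pair samples. Deviations of same-numbered samples from their group means, taken over all tested genes, correlated at -0.26 to 0.20 over 22 pairs (median -0.04). With the number as a block 25 genes were lower in the knockout after CCl4, where 5.04% of tested genes were. Against injured wild type 16 were lower with that block, and the share of all tested genes there is not given here. With 3 injured knockout samples, changes near 0.6 log2 were the smallest called.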
